A study of Mus musculus with 14 samples.

Results

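The genes described here are 8 members of the interleukin 1 (IL-1) system: the ligands Il1a and Il1b, the receptor antagonist Il1rn, the signalling receptor Il1r1 and its partner Il1rap, the decoy receptor Il1r2, and the related ligand and receptor Il18 and Il18r1. Every probe set whose platform annotation gives 1 of these symbols was taken, which gave 12 of the 22626 probe sets tested and 8 of 12393 named genes. Il1rn and Il1rap have 3 probe sets each and the other 6 genes have 1. Where a gene has 3, its brightest probe set stands for it and the other two are given beside it. The set was chosen by gene symbol with the log2 differences between these same groups of arrays already known, so its group differences are descriptions and not independent tests.

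Expression was measured in bone marrow cells (BMCs) sorted by flow cytometry as Sca1-positive and cKit-negative, on Affymetrix mouse arrays with 1 sample per array. The Instigator group (n = 5) came from mice with a BPLER tumour, which is an instigating tumour, that is, one able to promote the growth of other tumour cells at a distant site. The Non-instigator group (n = 5) came from mice with a PC3 non-instigating tumour of matched size, and the Matrigel group (n = 4) from control mice given Matrigel. BPLER is a transformed human mammary epithelial line, PC3 is a human prostate carcinoma line, and Matrigel is a basement membrane extract. The 2 tumour groups therefore differ in the tissue of origin of the tumour line as well as in instigating activity, and each activity is represented by 1 line. The labels name no mouse strain, age, allele, animal, batch or date. Nothing in them says that arrays came from separate animals, so p-values measure sample-to-sample spread only, and that spread may be technical.

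IL-1 alpha and IL-1 beta act through the same receptor: they bind IL-1R1, which then recruits the accessory protein IL1RAP and starts MyD88-dependent signalling to NF-kB and MAP kinases. The antagonist encoded by Il1rn occupies IL-1R1 without recruiting the accessory protein. IL-1R2, encoded by Il1r2, binds IL-1 but lacks the cytoplasmic signalling domain, so it takes up the ligand as a decoy, and neutrophils are known for carrying it. IL-18 is made as a precursor that, like that of IL-1 beta, is cleaved by caspase 1, and its receptor, encoded by Il18r1 and Il18rap, is known for its use by NK and T cells.

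In the mouse gene order of GRCm38.p6, Il1r2, Il1r1, Il1rl2, Il1rl1, Il18r1 and Il18rap are consecutive protein-coding genes on chromosome 1, and Il1a and Il1b are adjacent on chromosome 2. Il1rn also lies on chromosome 2, next to Il1f10, while Il1rap lies on chromosome 16 and Il18 on chromosome 9. RefSeq promoter windows on GRCm38.p6 were found for all 8 genes. The 250 bases upstream of the annotated start are printed for Il1r2, the gene with the largest difference from Matrigel. They are also printed for the neighbouring ligands Il1a and Il1b, whose mean differences from Matrigel were small. The window of Il1r2 is chr1:40085843-40086092 on the plus strand, that of Il1a is chr2:129309973-129310222 on the minus strand, and that of Il1b is chr2:129371140-129371389 on the minus strand. Each is written 5′ to 3′, with capitals for the motif CACGTG in Il1r2 and TATAAA in the ligands.
Il1r2: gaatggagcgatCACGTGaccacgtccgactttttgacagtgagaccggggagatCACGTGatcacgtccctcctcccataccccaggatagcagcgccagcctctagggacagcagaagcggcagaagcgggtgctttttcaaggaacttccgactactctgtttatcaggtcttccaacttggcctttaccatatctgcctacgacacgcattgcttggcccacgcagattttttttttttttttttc
Il1a: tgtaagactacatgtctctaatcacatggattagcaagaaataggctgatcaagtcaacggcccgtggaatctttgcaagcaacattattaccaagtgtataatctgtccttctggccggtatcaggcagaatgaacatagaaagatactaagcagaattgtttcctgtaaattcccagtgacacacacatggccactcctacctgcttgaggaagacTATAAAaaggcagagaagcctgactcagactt
Il1b: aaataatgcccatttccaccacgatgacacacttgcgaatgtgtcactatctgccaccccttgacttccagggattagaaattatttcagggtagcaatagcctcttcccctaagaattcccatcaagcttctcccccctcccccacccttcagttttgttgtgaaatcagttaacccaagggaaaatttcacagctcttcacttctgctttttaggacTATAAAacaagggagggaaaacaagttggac

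Both strands of the 250-base windows were searched for TATAAA, the NF-kB form with GGG and CC separated by 5 free bases, TTGCNNAA (C/EBP), AGAGGAA (PU.1) and CACGTG (an E box), where N is any base. TATAAA begins at position -32 in Il1a and -31 in Il1b, with the base just before the annotated start as -1, and Il18 holds it on the opposite strand at -175. It was in 3 of the 13 windows of the 8 genes (23.1%) and in 12.4% of all 32851 promoter windows. Il1r2 holds 2 copies of CACGTG, at -238 and -195, a motif found in 6.02% of windows and searched only after the Il1r2 window had been read. The NF-kB form was in 5 of the 13 windows (38.5%), those of Il1rn, Il1r1, Il18r1 and Il1rap, and in 45.8% of all windows. TTGCNNAA was in 1 window of Il1r1 (9.56% of all windows), and AGAGGAA (8.55% of all windows) was in no member's window. A match describes the letters alone.

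The quality of 2 arrays differed from the rest. On Instigator 4 the 5' minus 3' log2 difference of the beta-actin control probe sets was -3.41, against -0.81 to -0.51 on the other 13 arrays, and that of Gapdh was -4.03, against -1.16 to -0.73. Matrigel 3 was brighter than the rest, with an array-wide median of 7.18 on the log2 scale where the other 13 ran between 6.90 and 7.01. The description of Instigator 5 names the PC3 tumour while its title and source label say Instigator, so it was kept in that group. Kit, which encodes the receptor the sort selected against, read 7.58 ± 0.22 in Instigator, 7.37 ± 0.45 in Non-instigator and 7.52 ± 0.37 in Matrigel arrays (log2, SD, n = 5, 5 and 4). Ly6a, which encodes Sca1, has 0 probe sets named for it alone, so the Sca1 label was not checked. In sorted bulk cells, fewer cells of a type and less RNA per cell cannot be told apart. All values below are on the log2 scale of the deposited intensity, on which 1 unit is a doubling, and levels of different probe sets are not comparable with each other.

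The decoy receptor Il1r2 (probe set 1419532_at) showed the largest difference of the 8 genes from Matrigel in both tumour groups. It read 7.69, 7.51, 6.91, 8.004 and 7.27 in the 5 Instigator arrays, 7.77, 7.34, 7.17, 7.72 and 7.12 in the 5 Non-instigator arrays, and 6.56, 7.03, 6.71 and 6.90 in the 4 Matrigel arrays. All 5 Non-instigator values and 4 of 5 Instigator values lay above the highest Matrigel value, and the exception was Instigator 3. The means were 7.48 ± 0.41 in Instigator, 7.42 ± 0.30 in Non-instigator and 6.80 ± 0.20 in Matrigel arrays (SD).

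For Il1r2, Instigator minus Matrigel was 0.68 (SE 0.20, 95% interval 0.25 to 1.10, 1.60-fold), with a limma p of 0.0040 and an adjusted p of 0.439 over all probe sets. Non-instigator minus Matrigel was 0.62 (SE 0.20, 95% interval 0.20 to 1.05, 1.54-fold), with a limma p of 0.0071 and an adjusted p of 0.986. Neither passed the threshold of 0.05 after adjustment, and both comparisons use the same 4 Matrigel arrays. Instigator minus Non-instigator was 0.06 (95% interval -0.34 to 0.46), so the values are compatible with a difference of either sign within these bounds. The difference from Matrigel was positive without each array in turn, between 0.55 (without Instigator 4) and 0.82 (without Instigator 3) for Instigator, and between 0.54 and 0.70 for Non-instigator.

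**Figure D1:**
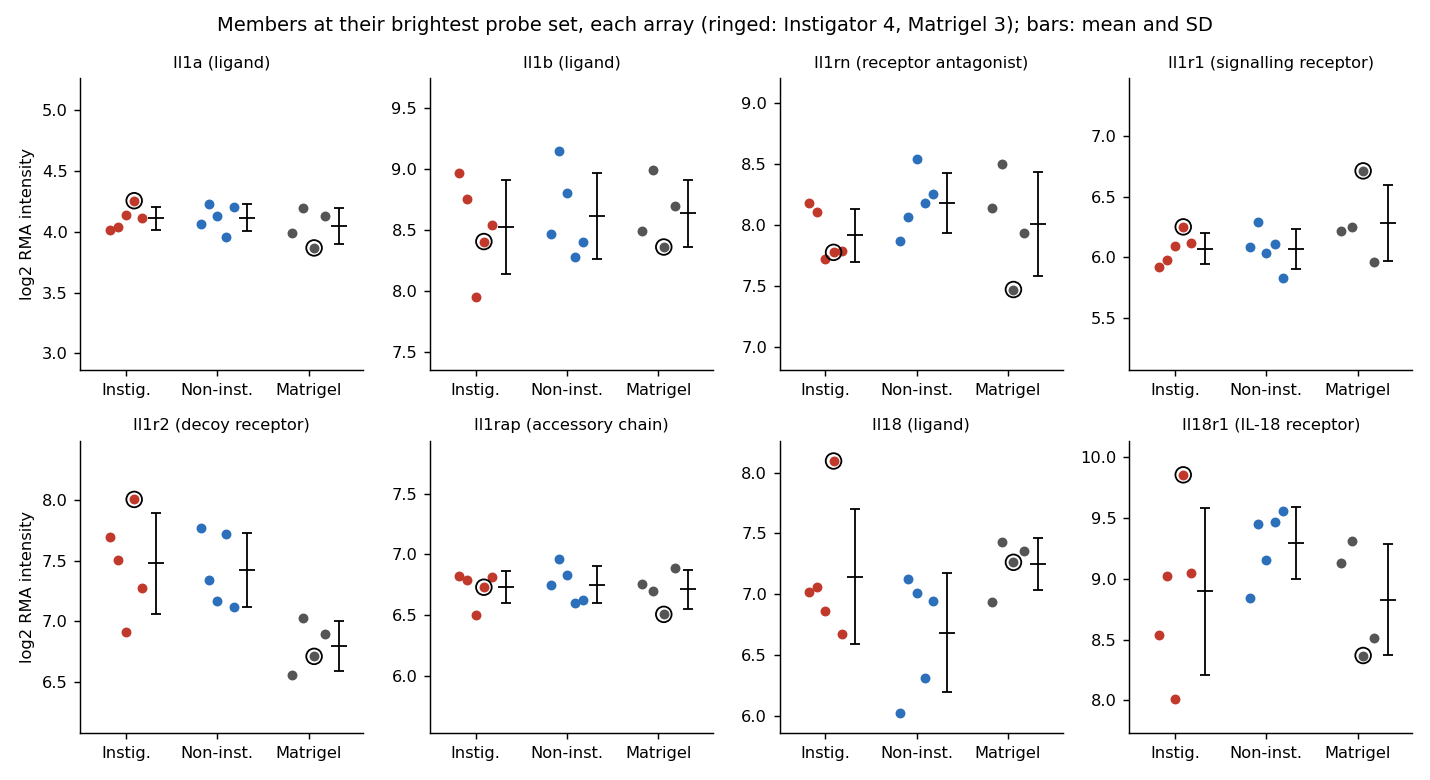
Log2 intensity (y axis) on each array, for the brightest probe set of each of the 8 genes, in Instigator, Non-instigator and Matrigel groups (x axis). Each point is 1 array, bars are means with SD, Instigator 4 and Matrigel 3 are ringed, and every panel spans the same height on the log2 scale. Il1r2 is the panel in which all Non-instigator points (7.12 to 7.77) lie above all Matrigel points (6.56 to 7.03).

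The group means of the IL-1 ligand genes Il1b and Il1a lay close together, with wide intervals for Il1b. Il1b (1449399_a_at) read 8.97, 8.76, 7.95, 8.40 and 8.54 in Instigator arrays, 8.46, 9.15, 8.80, 8.28 and 8.40 in Non-instigator arrays, and 8.49, 8.997, 8.36 and 8.70 in Matrigel arrays. The 3 groups overlapped across most of their range, and the lowest value was Instigator 3. Instigator minus Matrigel was -0.11 (95% interval -0.56 to 0.34) and Non-instigator minus Matrigel was -0.02 (95% interval -0.47 to 0.43). The values are thus compatible with a change of Il1b of either sign within these bounds. Instigator minus Non-instigator was -0.09 (95% interval -0.52 to 0.33). Without Instigator 3, Instigator minus Matrigel was 0.03 and Instigator minus Non-instigator 0.05. Among 23 alternative runs, that one included, 2 and 3 gave the opposite sign, so neither sign held throughout. Non-instigator minus Matrigel lay between -0.15 and 0.10 when each array was left out.

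Il1a (1421473_at) ranged from 4.01 to 4.26 in Instigator, from 3.96 to 4.23 in Non-instigator and from 3.87 to 4.19 in Matrigel arrays. These values lie under the median of every array, and the deposited table gives no detection call. Both tumour groups were within 0.07 of Matrigel (95% intervals -0.12 to 0.26 in each comparison), and Instigator minus Non-instigator was 0.00.

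The antagonist Il1rn (1451798_at) read 8.18, 8.11, 7.72, 7.78 and 7.79 in Instigator arrays, 7.87, 8.06, 8.54, 8.18 and 8.25 in Non-instigator arrays, and 8.14, 8.50, 7.47 and 7.93 in Matrigel arrays. The Matrigel arrays spanned more than either tumour group, with Matrigel 3 lowest of all 14. Instigator minus Matrigel was -0.09 (SE 0.18), Non-instigator minus Matrigel 0.17 (SE 0.18) and Instigator minus Non-instigator -0.27 (95% interval -0.64 to 0.10). Without Matrigel 3, Instigator minus Matrigel was -0.27 and Non-instigator minus Matrigel was -0.01. Without Matrigel 2 they were 0.07 and 0.34. The other 2 probe sets of Il1rn gave -0.16 and 0.12 for Instigator minus Matrigel and -0.18 and -0.01 for Instigator minus Non-instigator. The 3 probe sets thus differed in sign in the first comparison and shared it in the second. Without Instigator 4 those 2 gave -0.07 and 0.02 for Instigator minus Non-instigator, so the shared sign was lost.

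The signalling receptor Il1r1 (1448950_at) read 5.92, 5.98, 6.10, 6.25 and 6.12 in Instigator arrays, 6.09, 6.29, 6.03, 6.11 and 5.83 in Non-instigator arrays, and 6.22, 6.25, 6.71 and 5.96 in Matrigel arrays. Matrigel 3 was the highest of all 14 arrays and the remaining values overlapped. All 14 values lie under the median of every array. Each tumour group minus Matrigel was -0.21 (SE 0.13), and -0.07 without Matrigel 3. Instigator minus Non-instigator was 0.00 (95% interval -0.27 to 0.27), and the values of Il1r1 set against those of Il1r2, its neighbour on chromosome 1, were not tested as a contrast.

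The accessory protein gene Il1rap (1421844_at) ranged from 6.50 to 6.82 in Instigator, from 6.60 to 6.96 in Non-instigator and from 6.51 to 6.89 in Matrigel arrays. Its differences were 0.02 for Instigator minus Matrigel, 0.04 for Non-instigator minus Matrigel and -0.02 for Instigator minus Non-instigator, each with an SE of 0.10. Its 2 dimmer probe sets gave -0.12 and -0.16 for Instigator minus Matrigel, and -0.08 and -0.06 for Non-instigator minus Matrigel, also within their 95% intervals of 0.

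Il18 (1417932_at) varied more within groups than most probe sets: its within-group SD of 0.46 exceeded that of 96.2% of them. It read 7.02, 7.06, 6.87, 8.10 and 6.67 in Instigator arrays, 6.02, 7.13, 7.01, 6.31 and 6.94 in Non-instigator arrays, and 6.94, 7.43, 7.26 and 7.35 in Matrigel arrays. Instigator 4 lay far above the other Instigator arrays, and Non-instigator 1 and 4 lay below all other arrays. Non-instigator minus Matrigel was -0.56 (SE 0.27, 95% interval -1.14 to 0.02, limma p 0.0576, adjusted p 0.986), Instigator minus Matrigel was -0.10 (SE 0.27), and Instigator minus Non-instigator was 0.46 (SE 0.26). Without Instigator 4 the last 2 were -0.34 and 0.22, and without Instigator 5 they were 0.01 and 0.58.

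The IL-18 receptor gene Il18r1 (1421628_at) read 8.54, 9.03, 8.01, 9.85 and 9.05 in Instigator arrays, 8.84, 9.45, 9.16, 9.47 and 9.56 in Non-instigator arrays, and 9.13, 9.31, 8.37 and 8.51 in Matrigel arrays. The highest and the lowest of all 14 values, Instigator 4 and Instigator 3, are both Instigator arrays, and the groups overlapped. Non-instigator minus Matrigel was 0.47 (SE 0.30) and Instigator minus Non-instigator was -0.40 (SE 0.28), neither past the threshold before adjustment. The second was -0.64 without Instigator 4 and -0.18 without Instigator 3. Instigator minus Matrigel was 0.07 (SE 0.30). It was -0.17 without Instigator 4, 0.29 without Instigator 3, -0.09 without Matrigel 3 and -0.33 without Instigator 4 and Matrigel 3. Non-instigator minus Matrigel lay between 0.31 (without Matrigel 3) and 0.63 (without Matrigel 2) when each array was left out.

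Its partner chain Il18rap, which is outside the 8 genes, read 7.16, 7.73, 7.40, 6.77 and 8.01 in Instigator arrays, against 7.78, 7.95, 8.06, 7.90 and 8.04 in Non-instigator arrays. The values of 4 of 5 Instigator arrays lay below all Non-instigator arrays, and the exception was Instigator 5, whose description names the PC3 tumour. Instigator minus Non-instigator was -0.53 (SE 0.20, limma p 0.0179, adjusted p 0.813), and -0.37 without Instigator 4.

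**Figure D2:**
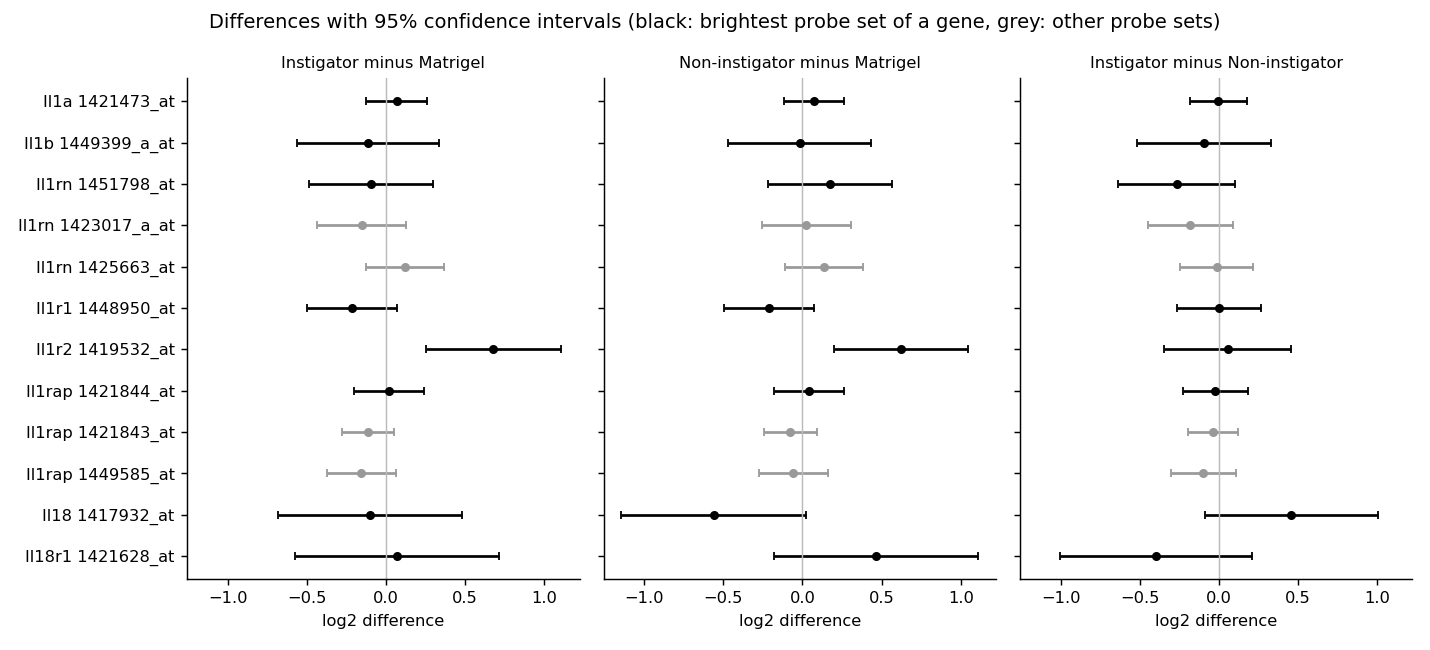
Difference on the log2 scale (x axis) with its 95% interval for each of the 12 probe sets (y axis), for Instigator minus Matrigel, Non-instigator minus Matrigel and Instigator minus Non-instigator. The intervals of Il1r2 leave 0 in both comparisons with Matrigel (0.25 to 1.10 and 0.20 to 1.05), and every other interval in the 3 comparisons includes 0.

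Of the 12 probe sets, 0 were called by limma at an adjusted p under 0.05 in any of the 3 comparisons, against a percentage called of 0 among all 22626 probe sets in each. At an unadjusted p under 0.05, 1 of 12 passed in Instigator minus Matrigel (10.3% of all probe sets), 1 of 12 in Non-instigator minus Matrigel (2.11% of all probe sets) and 0 of 12 in Instigator minus Non-instigator (5.60% of all probe sets). The 1 that passed was Il1r2 both times. Il1r2 in Non-instigator against Matrigel was also the 1 of 36 cases in which groups did not overlap, where 0.287% of all probe sets lay wholly higher and 0.610% wholly lower. The shares were 1.02% and 1.68% in Instigator against Matrigel, and 0.751% and 0.446% in Instigator against Non-instigator. Counts above 0 were 5, 7 and 3 of 12 in these comparisons, with medians of -0.10, 0.03 and -0.03, against -0.03, -0.04 and 0.02 over all probe sets.

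Genes around the members were read from 4 lists, of which 0 genes were called in any comparison. Of 11 other IL-1 family ligands and receptors, 3 were above 0 in Instigator minus Matrigel, 6 in Non-instigator minus Matrigel and 5 in Instigator minus Non-instigator, and only Il18rap passed an unadjusted p under 0.05, in the last comparison. Of 9 inflammasome and cytokine-processing genes, 4, 2 and 5 were above 0. Nlrp3, the sensor that assembles the caspase 1-activating complex, read 7.27, 7.56, 7.54, 8.01 and 7.17 in Instigator arrays, 6.997, 7.06, 7.05, 7.26 and 6.95 in Non-instigator arrays, and 7.13, 7.07, 7.30 and 7.18 in Matrigel arrays. The values of 4 of 5 Instigator arrays lay above all Non-instigator values, and the exception was Instigator 5, whose description names the PC3 tumour. Instigator minus Non-instigator was 0.45 (SE 0.13, limma p 0.0038, adjusted p 0.813), and 0.32 without Instigator 4. Casp1, which cleaves both precursors, gave 0.20 (SE 0.11) in the same comparison.

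Of 18 IL-1 receptor signalling genes, 8, 11 and 8 were above 0. Myd88, the adaptor of the receptor complex, gave 0.37 (SE 0.15, limma p 0.0252, adjusted p 0.442) for Instigator minus Matrigel, and 0.23 without Instigator 4. Map2k4, a kinase upstream of JNK, gave 0.47 (SE 0.20), and 0.25 without Instigator 4. Mapk8, which encodes a JNK, gave -0.24 (SE 0.10) for Non-instigator minus Matrigel. Of 20 NF-kB and IL-1 response genes, 9, 11 and 12 were above 0. The neutrophil chemokine gene Cxcl2 ranged from 4.16 to 4.47 in Instigator and from 3.55 to 4.12 in Matrigel arrays, which do not overlap; 1.02% of all probe sets were likewise wholly higher. These values are as dim as those of Il1a, so low signal limits the comparison. Its difference was 0.38 (SE 0.14, adjusted p 0.442 in limma). Saa3, an acute-phase gene, gave 0.60 (SE 0.28) for Instigator minus Matrigel and 0.28 without Instigator 4, and Nfkbie, an inhibitor of NF-kB, gave -0.53 (SE 0.22). Tnf gave 0.28 (SE 0.12, adjusted p 0.813 in limma) for Instigator minus Non-instigator.

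**Figure D3:**
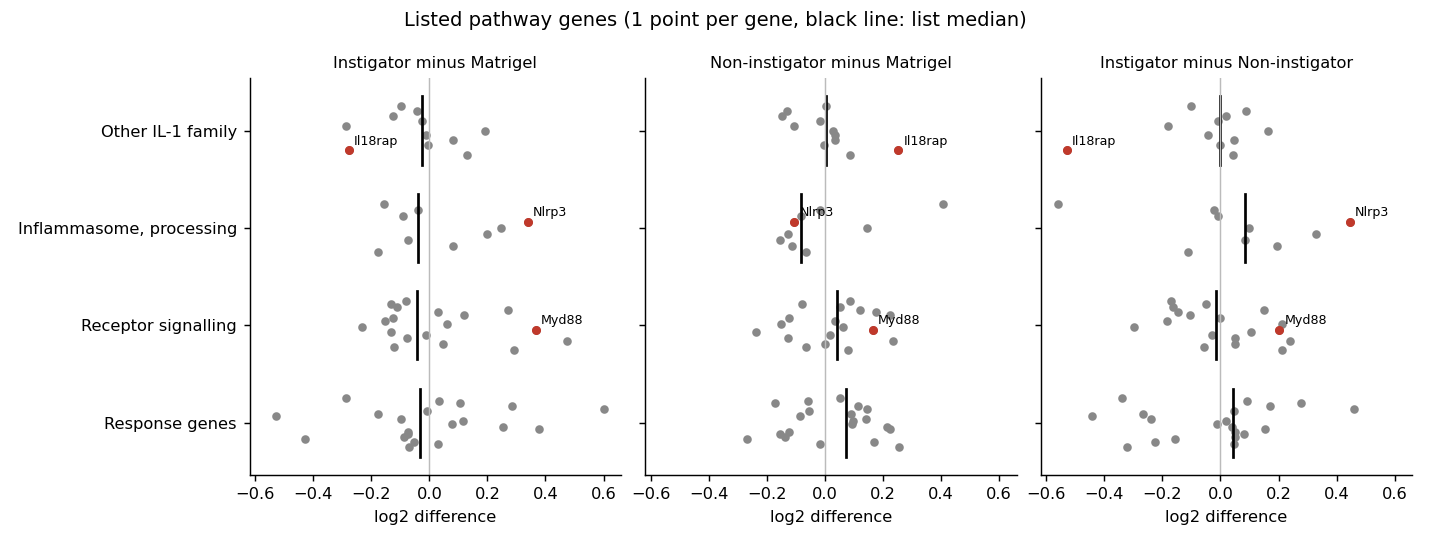
Difference on the log2 scale (x axis, the same range in each panel) of every measured gene of the 4 lists (y axis, 1 row of points per list), for Instigator minus Matrigel, Non-instigator minus Matrigel and Instigator minus Non-instigator. Each point is 1 gene at its brightest probe set and the short bars are list medians, all of which lie between -0.08 (inflammasome list, Non-instigator minus Matrigel) and 0.08 (the same list, Instigator minus Non-instigator).

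The members did not vary as 1 block across the 14 arrays. Among the 28 pairs of the 8 genes, Pearson's r ran from -0.49 (Il1rn and Il1r1) to 0.79 (Il1b and Il1rap), and 1 pair passed a permutation test after adjustment over the 28. For Il1b and Il1rap, r was 0.79 (permutation p 0.00079, adjusted 0.0221) and Spearman's rho was 0.80 (permutation p 0.00096, adjusted 0.0269). With group means removed r was 0.80, and without Instigator 4 and Matrigel 3 it was 0.81. Without Instigator 3 and Non-instigator 2, the 2 arrays farthest from the median of Il1b, r was 0.59 and its adjusted permutation p was 0.355, so the call was lost without those arrays. The other two Il1rap probe sets gave r of 0.21 and -0.07 with Il1b. Il1b and its antagonist Il1rn gave r of 0.55 (permutation p 0.0436, adjusted 0.558) and rho of 0.49 (permutation p 0.0757, adjusted 0.605), and 0.57 without those same 2 arrays. The other two Il1rn probe sets gave r of -0.04 and 0.22 with Il1b.

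Markers of other blood cell types were read beside the members. The 14 measured neutrophil markers had array means of 11.61 to 11.88 in Instigator, 11.46 to 11.82 in Non-instigator and 11.30 to 11.63 in Matrigel arrays, and 13 and 11 of the 14 lay above 0 in the 2 comparisons with Matrigel. At an unadjusted limma p under 0.05, 5 and 1 of the 14 were higher, as were 450 and 98 of all 12393 named genes. For Instigator minus Matrigel, Mmp8 gave 0.44 (SE 0.14), Cd177 gave 0.43 (SE 0.15) and Ngp gave 0.23 (SE 0.09). The 12 measured basophil, mast cell and eosinophil markers had array means of 7.64 to 8.36 in Instigator, 7.69 to 8.10 in Non-instigator and 7.07 to 7.76 in Matrigel arrays, with 10 and 12 of the 12 above 0. At the same unadjusted threshold, 2 and 1 of the 12 were higher. Among these, the basophil protease gene Mcpt8 averaged 9.82, 9.90 and 9.33, and the histamine-synthesis gene Hdc averaged 9.61, 9.33 and 8.95 in Instigator, Non-instigator and Matrigel arrays. In the same order, Alox15 averaged 8.35, 8.24 and 7.53, and Siglecf averaged 7.47, 6.97 and 6.81. In Instigator minus Non-instigator 6 of the 12 lay above 0 and 6 below, among the latter Ccr3 at -0.47 (SE 0.14). The part of the cells of either list in the Il1r2 difference was not tested.

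The 14 measured NK and T cell markers had array means of 8.49 to 9.20 in Instigator, 8.82 to 9.66 in Non-instigator and 9.02 to 9.35 in Matrigel arrays. In Instigator minus Matrigel 0 of the 14 lay above 0, in Non-instigator minus Matrigel 12 did, and in Instigator minus Non-instigator 0 did. In the same 3 comparisons Il18r1 gave 0.07, 0.47 and -0.40, and Il18rap gave -0.28, 0.25 and -0.53. Array means of the 15 measured monocyte and macrophage markers were 8.38 to 9.08 in Instigator, 8.37 to 8.62 in Non-instigator and 8.42 to 8.76 in Matrigel arrays. The part of either cell group in the values of Il18r1, Il18rap and Il18 was not tested.

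Of the other lists, 2 had larger medians below 0 in the Instigator arrays. The 14 measured B lineage and plasma cell markers had array means of 8.49 to 9.42 in Instigator, 8.71 to 10.01 in Non-instigator and 9.36 to 9.74 in Matrigel arrays. In Instigator minus Matrigel 13 of the 14 lay below 0, with a median of -0.43 and 4 at an unadjusted p under 0.05. In Non-instigator minus Matrigel 9 of the 14 did, with a median of -0.19. The 12 measured dendritic cell markers had array means of 7.65 to 8.29 in Instigator, 7.75 to 8.53 in Non-instigator and 8.25 to 8.66 in Matrigel arrays. Of these, 10 of 12 lay below 0 in Instigator minus Matrigel, with a median of -0.44 and 7 at an unadjusted p under 0.05. In Non-instigator minus Matrigel 10 of 12 also lay below 0, with a median of -0.22. In Instigator minus Non-instigator 13 of the 14 B lineage and plasma cell markers lay below 0, with a median of -0.33. There 10 of the 12 dendritic cell markers did, with a median of -0.26. Among all 12393 named genes, 640 were lower at an unadjusted p under 0.05 in Instigator minus Matrigel. The erythroid, stromal and progenitor lists had medians between -0.15 and 0.06 in the 3 comparisons. In all 9 marker lists 0 genes were called by limma after adjustment.

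Each of the 8 genes was set against the mean of each of 9 marker lists across the 14 arrays, 72 relations chosen after the data were seen. Il1r2 and the basophil, mast cell and eosinophil list gave r of 0.78 (permutation p 0.00051, adjusted 0.0367) and rho of 0.78 (permutation p 0.0019, adjusted 0.134). Both are higher in the tumour groups, and with group means removed r was 0.63. Without Matrigel 3 and Instigator 4, the arrays farthest on the list mean, r was 0.70, and its adjusted permutation p was 0.188 with all relations computed without these 2 arrays, so the call was lost. With the neutrophil list, Il1r2 gave r of 0.45 (permutation p 0.107, adjusted 0.518) and rho of 0.42 (permutation p 0.141, adjusted 0.750). This r was 0.20 without Matrigel 3 and Instigator 1, the 2 farthest arrays on that list. It was 0.45 without Instigator 4 and Matrigel 3, and 0.08 with group means removed. Il18r1 and the NK and T cell list gave r of 0.69 (permutation p 0.0060, adjusted 0.144) and rho of 0.61 (permutation p 0.0231, adjusted 0.553). That r was 0.44 without its 2 farthest arrays, 0.67 with group means removed, and 0.90 (adjusted permutation p 0.0065) without Instigator 4 and Matrigel 3. Without Instigator 4 and Matrigel 3, Il18r1 also gave r of 0.81 with the B lineage list and 0.76 with the dendritic cell list, so the relation is not shown to be particular to NK and T cell markers. With all arrays those were 0.47 (permutation p 0.0868, adjusted 0.518) and 0.38 (permutation p 0.184, adjusted 0.632), with rho of 0.37 (permutation p 0.191, adjusted 0.750) and 0.35 (permutation p 0.215, adjusted 0.773), and r without their 2 farthest arrays was 0.07 and 0.04. Il18 and the monocyte and macrophage list gave r of 0.74 (permutation p 0.0036, adjusted 0.131) and rho of 0.64 (permutation p 0.0170, adjusted 0.553), and 0.46 without Matrigel 3 and Instigator 4, the 2 farthest arrays.

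**Figure D4:**
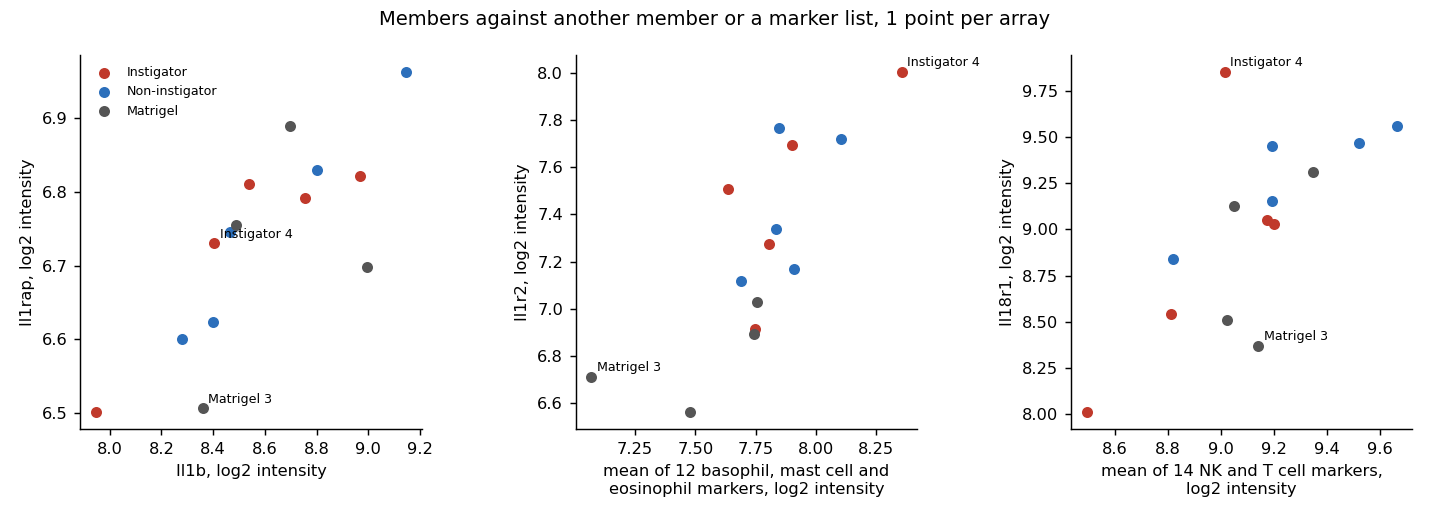
Log2 intensity of Il1rap against Il1b (left), of Il1r2 against the mean of 12 basophil, mast cell and eosinophil markers (middle) and of Il18r1 against the mean of 14 NK and T cell markers (right), with 1 point per array coloured by group and Instigator 4 and Matrigel 3 named. Instigator 4 is the top right point of the middle panel and lies above the other points in the right panel, where r is 0.69 with it and 0.90 without it and Matrigel 3.

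For each gene, the 3 other named genes of most similar order over the 14 arrays were found by Spearman's rho, given here as a description. For Il1r2 they were Jdp2, an AP-1 family transcription factor gene (rho 0.92), Lyst, a lysosomal trafficking regulator gene (0.88), and Eif4enif1 (0.86). Jdp2 averaged 9.24 in Instigator, 9.23 in Non-instigator and 8.99 in Matrigel arrays, and Lyst averaged 9.19, 9.06 and 8.71 in the same order. For Il18r1 they were Ctla2b (0.96), the diacylglycerol kinase gene Dgka (0.96) and the phosphate transporter gene Slc20a1 (0.95). For Il1rn they were Cflar, a caspase 8 regulator gene (0.94), Hsd3b5 (0.92) and Lpin2 (0.92). The leading gene was Rab20 for Il1b (0.85), Agxt for Il1rap (0.89), Lamp5 for Il1r1 (0.89), Plp2 for Il1a (0.86) and Nucb2 for Il18 (0.85). These are the highest values among 12393 genes searched, and none was tested.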

How the data were processed

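Per the labels' protocols, cells were sorted into Trizol, Qiagen kits gave total RNA, and the NuGen Ovation system was used for biotin labelling. The authors deposited linear intensity values, which per the submitters' processing notes were made by RMA (affy package, R 2.11.0), with options not given in the sources used. No further normalization was applied, and log2 of the deposited intensity was analysed. Of the probe sets, 64 array controls were left out, and 22626 were tested: 20380 carry 1 symbol, 691 several and 1555 none, and 0 member symbols lie on probe sets with several.

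All 14 arrays entered 1 limma 3.58.1 fit in R 4.3.3, with group as the factor and Benjamini-Hochberg adjustment over 22626 probe sets, called at 0.05. The number of arrays limits the precision. The fit was also run on simulated data with independent normal values. Those hold neither array quality differences nor correlation between genes, so that run does not show how the fit behaves here. Correlations used 100000 two-sided permutations in Python 3.11.15 with scipy 1.17.1 and numpy 2.4.6, and plots used matplotlib 3.10.9.

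The members and gene lists were chosen with earlier results of these data known. The text names all members, and no pathway or marker list held a called gene. Genes of the pathway, neutrophil, and basophil, mast cell and eosinophil lists whose values are given are among the 3 smallest in p in a comparison. From the other marker lists only the sort markers Ly6a and Kit are named. Of the 3 genes with the highest Spearman rho for each member, all 3 or the first are named. Replicate numbers were not used as pairs in the main fit. Of 13 same-number pairs, 5 had deviations correlated over 0.1. Their median was 0.05, against -0.02 over the 52 other pairs, which does not settle whether the numbers pair the arrays. Alternatives were leaving out each array, leaving out Instigator 4 and Matrigel 3, and Instigator 5 moved or left out. Others were quantile normalization, centring on the array median, array weights, the brighter probe sets and the replicate block. Fits of only the groups being compared, and a fit with an intensity trend and robust estimation, were also run.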

Additional observations from a re-analysis of the deposited data

Results flagged for a closer look

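The 14 values of each of the 12 probe sets were looked at for single arrays far from the rest of their group. Of 36 groups examined with Dixon's criterion, 2 held such an array, where chance gives about 1.8 (1 in 20 groups). Il18 read 8.10 on Instigator 4, against 6.67 to 7.06 on the other 4 Instigator arrays. Il1rap (1421844_at) read 6.50 on Instigator 3, against 6.73 to 6.82 on the other 4 Instigator arrays.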

How the results depend on the processing

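Of all probe sets, 0 were called in Instigator against Matrigel, 0 to 1 when each array was left out in turn, with 1 without Instigator 4, and 1 without Instigator 4 and Matrigel 3; the cause was not tested. At an unadjusted p under 0.05 this comparison had 740 higher and 1584 lower probe sets, against 1298 higher and 1198 lower after quantile normalization and 1772 higher and 961 lower after centring on the array median. Member probe sets called were 0 in every comparison and alternative run. Among 42 member differences (36 at the 12 probe sets, and 3 each for Il1rn and Il1rap as the mean of their probe sets) and 813 alternative values, 71 had the opposite sign, in 20 differences of which none passed the adjusted threshold. Il1r2 minus Matrigel was positive in all alternatives run, between 0.52 and 0.82 in Instigator and between 0.47 and 0.70 in Non-instigator arrays. With the replicate number as a block, Il1r2 gave 0.74 for Instigator and 0.69 for Non-instigator minus Matrigel, and no call changed. Instigator 5 counted as Non-instigator gave 0.73 and 0.60. Without the 2 arrays farthest on the x axis, the pair Il1b and Il1rap gave r of 0.59 and 0 of 28 pairs were called, against 1. In the same setting Il1r2 and the basophil, mast cell and eosinophil list gave 0.70 and 0 of 72 relations were called, against 1. Without Instigator 4 and Matrigel 3 it gave 0.70, and the 1 relation called was Il18r1 with the NK and T cell list. Low signal limits Il1a and Il1r1, whose values lie under every array's median, and Cxcl2. The brightest Il1rap probe set was also dimmer on average than the median probe set, with 45.8% of all probe sets dimmer than it. The other probe sets of Il1rap and Il1rn were dimmer still.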

Other observations

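The same Instigator arrays were extreme at several members. Of the 8 genes at their brightest probe sets, Instigator 4 was the highest Instigator array at 5 (Il1a, Il1r1, Il1r2, Il18 and Il18r1), and Instigator 3 was the lowest at 5 (Il1b, Il1rn, Il1r2, Il1rap and Il18r1). Il1r2 read 8.004 on Instigator 4 and 6.91 on Instigator 3, and Il18r1 read 9.85 and 8.01, so for both genes the Instigator group alone spans most of the range of all 14 arrays. Of all 14 arrays, Instigator 3 had the lowest mean of the NK and T cell markers (8.49), the B lineage and plasma cell markers (8.49) and the dendritic cell markers (7.65).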
